A study of Mus musculus with 2 samples.

Results

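Squamous epithelial cells are held together by desmosomes and can build a cornified envelope, and genes of both programmes were followed here in a mouse pancreatic cancer line. The 9 genes, Dsp, Pkp1, Dsg2, Dsc2, Perp, Sprr1a, Sfn, Trp63 and Ly6d, were taken by symbol from the 33696 features of the count matrix, and all 9 were found. The cells came from KPCY 6419c5, a pancreatic ductal adenocarcinoma line. KPCY tumours carry mutant Trp53 and a yellow fluorescent reporter, switched on by Cre under the pancreatic Pdx1 promoter. Clones 76 and 84 of the line, each grown from 1 sorted cell, carried the BASELINE lineage recorder, which is written by an adenine base editor built on Cas12a. After 19 days of editing they were mixed in equal numbers and run as 1 droplet library with 3′ chemistry. A second sample, a mixture of clones 1, 32, 33, 52 and 76, was not analysed here.

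Desmosomes are plaques of cell adhesion in which cadherins (the desmogleins and desmocollins) span the membrane and bind plakoglobin and plakophilins, which in turn bind desmoplakin and the keratin filaments. The cornified envelope is a cross-linked protein shell, made in part of small proline-rich (SPRR) proteins, that replaces the plasma membrane of terminally differentiating squamous cells. Trp63 encodes p63, the transcription factor that sets up squamous and basal epithelia, and in pancreatic cancer its expression is known from the squamous or basal-like subtype.

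The library held 116505698 unique molecular identifiers (UMIs, each counting 1 captured RNA molecule) in 22178 cell barcodes. Of these, 21361 passed the filter of 2000 or more UMIs, 1000 or more detected genes and no more than 15% of UMIs from mitochondrial genes. Cells were put into 2 classes by genes other than the 9 members. A cells had at least 2 UMIs of Pde10a, Plcb1, Galnt18, Arhgap15 and Ceacam1 and at least 3 times as many of these as of the B genes. B cells met the mirrored rule for S100a7a, Rgs20, Hs6st2, Ccbe1, Ctse and Mal. The rule gave 7816 A cells (36.6%) and 8936 B cells (41.8%), and left 4609 cells (21.6%) in neither class. The cells were not assigned to clone 76 or clone 84 here, so the classes are not called clones. The median cell held 4699.5 UMIs in A and 5440.5 in B, and the median mitochondrial share was 3.19% in A and 1.89% in B. Both classes carried the ductal epithelial markers of the label (7 genes, summed to 2739 CPM, that is UMIs per 1000000 UMIs of the class, in A and 7584 CPM in B), most of it from keratins 8, 18 and 19 and, in B, keratin 7. Epcam went the other way (31.8 CPM in A and 3.16 CPM in B), and Sox9 was at 1.91 and 5.68 CPM. Markers of immune cells and fibroblasts summed to at most 3.45 CPM in either class, with Dcn and C1qa at 0. Among them Coro1a (78 against 14 UMIs) and Col3a1 (51 against 2 UMIs) were higher in A. Endothelial markers summed to 33.5 CPM in A and 8.55 CPM in B, nearly all of it Egfl7, with Kdr at 0. Acinar markers summed to 13.7 and 4.38 CPM, with Cpa1 and Ptf1a at 0 and Prss2 (10.01 against 4.21 CPM) and Cela1 (3.65 against 0.171 CPM) higher in A.

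There is 1 library, so the cells are not replicates of a condition and no test was possible. The brackets below are exact 95% intervals, Poisson for levels, Clopper-Pearson for shares and conditional binomial for ratios. They account for counting error alone and say nothing of how cultures vary, and they are too narrow where a few cells hold most of a gene's UMIs. Shares of cells with a UMI were read after every cell was thinned at random to 3000 UMIs, which left 7406 A cells and 8827 B cells. Any of 5 endocrine hormone genes, which this line should lack, had a UMI in 0.0135% of A cells and 0.0227% of B cells. As no cell of the library should express them, these shares do not measure RNA carried from B cells into A droplets. Its part in the A values below was not tested.

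RefSeq's promoter table on mouse build GRCm38.p6 held 3 of the 9 members, and their promoter sequences are shown for that reason. Nothing here relates these letters to the levels below. The sequences are the 250 bases before the annotated start, 5′ to 3′ on the gene's strand, at chr3:92485882-92486131 (minus strand) for Sprr1a, chr4:133602169-133602418 (minus strand) for Sfn and chr13:38151044-38151293 (plus strand) for Dsp. Capitals mark TGANTCA, the letters bound by AP-1 factors, and TATAAA, the TATA box, each searched on both strands.
Sprr1a: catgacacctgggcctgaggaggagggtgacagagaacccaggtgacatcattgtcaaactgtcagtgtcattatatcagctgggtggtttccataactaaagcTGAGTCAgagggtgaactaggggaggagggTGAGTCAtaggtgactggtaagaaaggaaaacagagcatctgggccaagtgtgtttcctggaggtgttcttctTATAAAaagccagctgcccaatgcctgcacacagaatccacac
Sfn: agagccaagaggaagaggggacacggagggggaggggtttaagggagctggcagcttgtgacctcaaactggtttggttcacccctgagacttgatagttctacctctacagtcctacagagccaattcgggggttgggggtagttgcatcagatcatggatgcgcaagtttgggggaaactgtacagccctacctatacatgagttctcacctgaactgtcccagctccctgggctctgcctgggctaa
Dsp: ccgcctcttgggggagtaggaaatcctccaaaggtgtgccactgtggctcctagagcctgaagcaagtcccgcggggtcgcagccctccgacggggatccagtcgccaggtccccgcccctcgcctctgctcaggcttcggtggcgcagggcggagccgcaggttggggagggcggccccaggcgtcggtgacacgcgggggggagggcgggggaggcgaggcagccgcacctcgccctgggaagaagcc
The Sprr1a window held 2 TGANTCA matches, which began 146 and 116 bases before the start, and 1 TATAAA match 43 bases before it. Over all 32851 promoters in windows of this length, 6.75% held at least 1 TGANTCA and 0.338% held at least 2, while 12.4% held TATAAA. Neither string occurred in the Sfn or Dsp window. The Dsp window was 72.4% G and C, against 54.4% for Sfn, 49.6% for Sprr1a and a median of 52.4% over all promoters.

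Over all 9 members and with no minimum, 7 were higher in B cells, by 1.87-fold to 29.7-fold, Trp63 was 6.17-fold higher in A cells, and Ly6d had 0 and 3 UMIs. Of the 9 genes, 7 reached 10 CPM in at least 1 class, and 6 of these were at least 2-fold higher in B cells, against 7.26% of the 8800 features that reached 10 CPM. None was at least 2-fold higher in A cells, against 10.3% of those features. At 10-fold the count was 3 members (Dsp, Sfn and Dsg2), against 1.59% of features higher in B. These counts describe and support nothing, since Dsp, Sfn, Dsg2, Pkp1 and Dsc2 reached 10 CPM only in B, the class where they are higher, and the same minimum leaves out Trp63. The members' summed level was 55.3 CPM in A cells and 426 CPM in B cells, a ratio of 7.71 (7.38 to 8.06), or 5.73 without Dsp. Across all features at 10 CPM the median log2 ratio of B over A was -0.17, so the members are to be read against a slight lean toward A. The members were chosen with earlier results of these data known.

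Desmoplakin, the plaque protein that ties desmosomes to keratin filaments, was the member that differed most. Dsp stood at 4.57 CPM in A cells (3.93 to 5.28) and 136 CPM in B cells (133 to 139), which is 29.7-fold higher (25.7 to 34.6). After thinning, 1.05% of A cells and 31.6% of B cells had a Dsp UMI. Without thinning these shares were 1.97% and 50.2%. The A level was 3.37% of the B level. Among 3255 other features with at least 50 CPM in B, outside the class genes, 7 had a lower A level relative to B, down to 1.39%, and the median was 99.5%. The 6 B class genes themselves, which the rule selects on, ran from 0.693% to 2.69%. With A cells restricted to those with no UMI of a B gene and B cells to those with no UMI of an A gene, the log2 ratio of Dsp was 5.46, against 4.89 over all A and B cells.

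Plakophilin 1, a plaque protein that clusters desmosomal cadherins in stratified epithelia, was lower in level but also differed widely. Pkp1 was at 1.84 CPM in A and 15.6 CPM in B, an 8.47-fold difference (6.67 to 10.9). It was detected in 0.486% of thinned A cells and 4.51% of thinned B cells. In RefSeq's gene order, the flanking genes Tnnt2 (108 against 484 CPM) and Lad1 (35.6 against 117 CPM) were also higher in B, whereas Tmem9 was lower (63.5 against 30.2 CPM).

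The 2 cadherin members did not move alike. Dsg2, the desmoglein found in simple epithelia as well as stratified ones, was at 1.69 CPM in A and 30.5 CPM in B, 18.1-fold higher (14.2 to 23.4). Dsc2, the matching desmocollin, was at 7.18 CPM in A and 13.4 CPM in B, 1.87-fold higher (1.63 to 2.15). Dsc2 was thus the member with the smallest difference among the 7, and its A level was 53.5% of its B level. The share of thinned cells with a UMI went from 0.459% to 8.73% for Dsg2 and from 2.12% to 4.14% for Dsc2. Both genes lie in the desmosomal cadherin cluster. Their cluster neighbour Dsg3, the desmoglein of basal keratinocytes, had 7 UMIs (0.174 CPM) in A and 537 UMIs (10.2 CPM) in B, while Dsc3, Dsg1a, Dsg1b and Dsg1c had 0 UMIs in both classes. Cdh2, beyond Dsc3 on the Dsc2 side and the gene of N-cadherin, was at 27.2 CPM in A and 199 CPM in B. Dsg3 and the flanking genes given here were named after their values were seen.

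Perp, a tetraspan membrane protein of desmosomes and a target of both p53 and p63, was the member most widely present in A cells. Its level was 20.01 CPM in A (18.7 to 21.4) and 90.0 CPM in B (87.5 to 92.6), 4.50-fold higher (4.17 to 4.85). It had a UMI in 5.63% of thinned A cells and 24.0% of thinned B cells, and in 9.42% and 40.0% without thinning.

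Of the squamous members, Sprr1a, a precursor of the cornified envelope that is also induced in stressed and regenerating epithelium, was at 17.1 CPM in A (15.9 to 18.5) and 122 CPM in B (119 to 125). The ratio was 7.14 (6.60 to 7.73). Its level in B exceeded that of Perp, but fewer cells carried it: 13.0% of thinned B cells and 1.82% of thinned A cells had a UMI. SPRR genes are close copies of one another, so some reads may not be assignable to 1 gene, which bears on their levels and zeros. The neighbours Sprr1b (0.124 against 1.08 CPM) and Sprr2k (0.298 against 2.84 CPM) were also higher in B but far lower in level, and Sprr3 and Sprr4 had 0 UMIs. Sprr2a3 went the other way, at 6.31 CPM in A (254 UMIs) and 0.493 CPM in B (26 UMIs), 12.8-fold higher in A (8.53 to 19.98). Sprr1a and the B class gene S100a7a both belong to the epidermal differentiation complex.

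Sfn, which encodes 14-3-3 sigma, a cell cycle inhibitor of stratified epithelia, was at 0.894 CPM in A and 18.4 CPM in B, 20.6-fold higher (14.8 to 29.6). It was seen in 0.230% of thinned A cells and 4.81% of thinned B cells. Its flanking genes Gpn2 (13.2 against 15.4 CPM) and Zdhhc18 (11.9 against 16.3 CPM) differed by less than 2-fold, while Nr0b2, the third gene on the Gpn2 side, was higher in B (0.944 against 12.9 CPM).

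The regulator did not follow the rest. Trp63 had 80 UMIs in A cells and 17 in B cells, or 1.99 CPM (1.58 to 2.47) against 0.322 CPM (0.188 to 0.516), and was 6.17-fold higher in A (3.62 to 11.1). Both levels lie below 10 CPM, so it enters none of the counts above that used this minimum. It was seen in 0.554% of thinned A cells and 0.113% of thinned B cells. Tprg, next to it in gene order, was likewise higher in A (56.5 against 9.89 CPM), and P3h2 on the other side was higher in B (6.73 against 24.3 CPM). The counts do not separate the long and short forms of p63. Ly6d, a surface protein of squamous and some other epithelia, had 0 UMIs in A cells, for which 3 counts in 7816 cells would be a share of 0.0384% and the exact interval over thinned cells reaches 0.0498%, and 3 UMIs in 2 of the B cells.

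**Figure D1:**
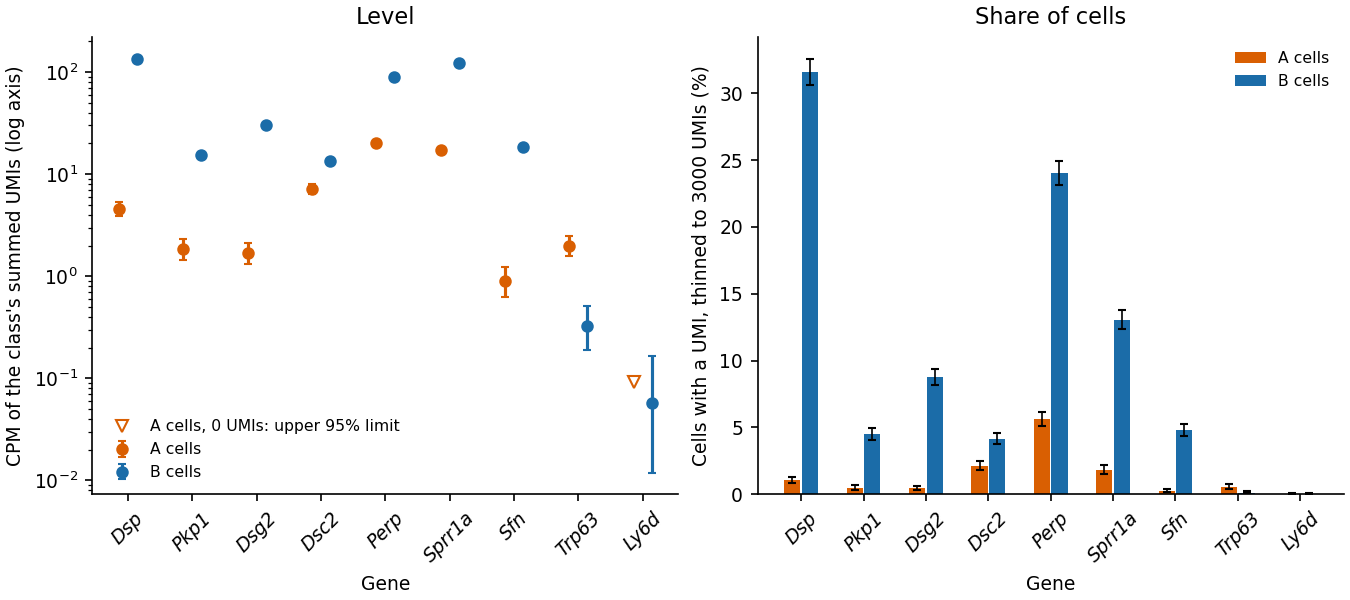
Left, level of each member in CPM of the summed UMIs of A cells (orange) and B cells (blue) on a log axis, with exact Poisson 95% intervals. Right, share of cells with a UMI after thinning to 3000 UMIs, with exact binomial 95% intervals. The blue point lies above the orange one for 7 genes and below it for Trp63, and Ly6d is close to 0 in both.

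The 4609 cells in neither class lay between A and B for the 8 members detected there. Dsp was at 54.5 CPM in these cells, Perp at 48.5 CPM, Sprr1a at 46.3 CPM and Dsg2 at 13.9 CPM. Of them, 3966 had too few class UMIs and 643 had UMIs of both lists.

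Other genes of the same programmes were read from lists. Of 13 further desmosome genes, 5 reached 10 CPM, and 2 were at least 2-fold higher in B (Dsg3 and periplakin, Ppl, at 3.38 against 57.6 CPM), 0 in A, with a median log2 ratio of 0.60 over the 5. The other 3 lay within 2-fold: plakoglobin (Jup) at 48.9 against 74.2 CPM, Pkp2 at 35.6 against 31.6 CPM and Pkp4 at 118 against 103 CPM. Of all 8800 features at 10 CPM, 7.26% were at least 2-fold higher in B and 10.3% in A, with a median log2 ratio of -0.17. Dsg3 and Ppl reached 10 CPM only in B, the class where they are higher, so the count supports nothing. Jup, Pkp2 and Pkp4 were thus present in both classes, while Dsp, Pkp1, Dsg2 and Ppl were low in A. Under 10 CPM, Pkp3 (0.348 against 7.41 CPM) and Evpl (1.29 against 6.10 CPM) were also lower in A. The other listed desmosome genes under 10 CPM had at most 1 UMI in either class.

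Among 13 basal epithelial genes 7 reached 10 CPM, 5 of them at least 2-fold higher in B (7.26% of all features) and 0 in A (10.3%). Keratin 14 (Krt14) was at 1.84 CPM in A and 69.6 CPM in B. The hemidesmosome integrin gene Itgb4 (2.46 against 52.9 CPM) and the basement membrane gene Lamb3 (3.40 against 122 CPM) differed by more than 10-fold. Krt5, the partner keratin of Krt14 in skin, had 0 UMIs in both classes, and Krt17 had 0 and 1.

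Of 36 cornified envelope genes, 5 reached 10 CPM, and 14 had 0 UMIs in A cells and 16 in B cells. The 3 at least 2-fold higher in B were Ivl (3.72 against 10.7 CPM), Krt10 (8.94 against 25.1 CPM) and Serpinb5 (0.869 against 27.1 CPM), against 7.26% of all features. None was at least 2-fold higher in A, against 10.3%, and the median log2 ratio was 1.49. Cstb and Anxa8 lay within 2-fold. Krt1, Krt6a, Krt6b and Krtdap had 0 UMIs in both classes, and loricrin (Lor) reached 3.18 CPM in B.

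Of 18 squamous regulators, 5 reached 10 CPM, with 1 at least 2-fold higher in B (7.26% of all features), 1 in A (10.3%) and a median log2 ratio of -0.37. Klf4, a regulator of barrier formation, was at 20.3 CPM in A and 81.0 CPM in B, 3.995-fold higher (3.71 to 4.31). Ehf, an epithelial ETS factor, went the other way, at 46.9 CPM in A and 1.35 CPM in B. Klf5 was at 122 and 93.4 CPM and Trp53 at 386 and 299 CPM. Sox2 and Tfap2c had 0 UMIs.

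Since Perp and Sfn are also p53 targets, 13 other p53 target genes were read. Of the 9 at 10 CPM, 3 were at least 2-fold higher in B (Cdkn1a, Plk2 and Phlda3), against 7.26% of all features, and 1 in A (Gdf15), against 10.3%. The other 5 lay within 2-fold, and the median log2 ratio was 0.30. Plk2 was at 11.1 CPM in A and 55.4 CPM in B, Phlda3 at 12.9 and 59.3 CPM, and Gdf15 at 118 and 9.25 CPM.

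Members were then compared cell by cell within a class. Although 7 members were higher in B as a class, single B cells showed almost no correlation between members. Over 8827 B cells the median Pearson r of the 36 pairs was 0.0021, from -0.0186 to 0.0681, and no pair passed 0.1. In A cells the median over the 28 pairs with any UMIs was 0.0019 and the highest was 0.0495. The values are log(1 + UMIs) after thinning, the cells share a library, and counts this sparse hold r near 0. In thinned B cells, 37.8% had a UMI of no member, 39.1% of 1 member, 23.1% of at least 2 and 4.96% of at least 3, with at most 5 in a cell. In A cells 88.4% had none and 0.729% at least 2.

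Counts of jointly detected cells resolved a few pairs. Sprr1a and Sfn were found together in 94 B cells, where the product of their shares gives 55.4, a ratio of 1.70 (1.37 to 2.08). Sprr1a and Dsp were together in 417 B cells where the product gives 364, a ratio of 1.15 (1.04 to 1.26), and Sprr1a and Pkp1 in 70 against 51.9, a ratio of 1.35 (1.05 to 1.70). Among desmosome genes, Dsp with Dsg2 gave 1.16 (1.04 to 1.31) and Dsp with Dsc2 gave 1.20 (1.01 to 1.41). For the other 16 of the 21 pairs with at least 10 cells in the product, the interval included 1. The 2 cadherins, for example, were together in 31 cells where the product gives 31.9. In A cells the joint counts were small: Perp and Dsp were together in 10 cells, 2.28 times the product (1.09 to 4.19), and Trp63 and Dsc2 in 5 cells, 5.75 times the product (1.87 to 13.4). The intervals are not adjusted for the number of pairs.

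**Figure D2:**
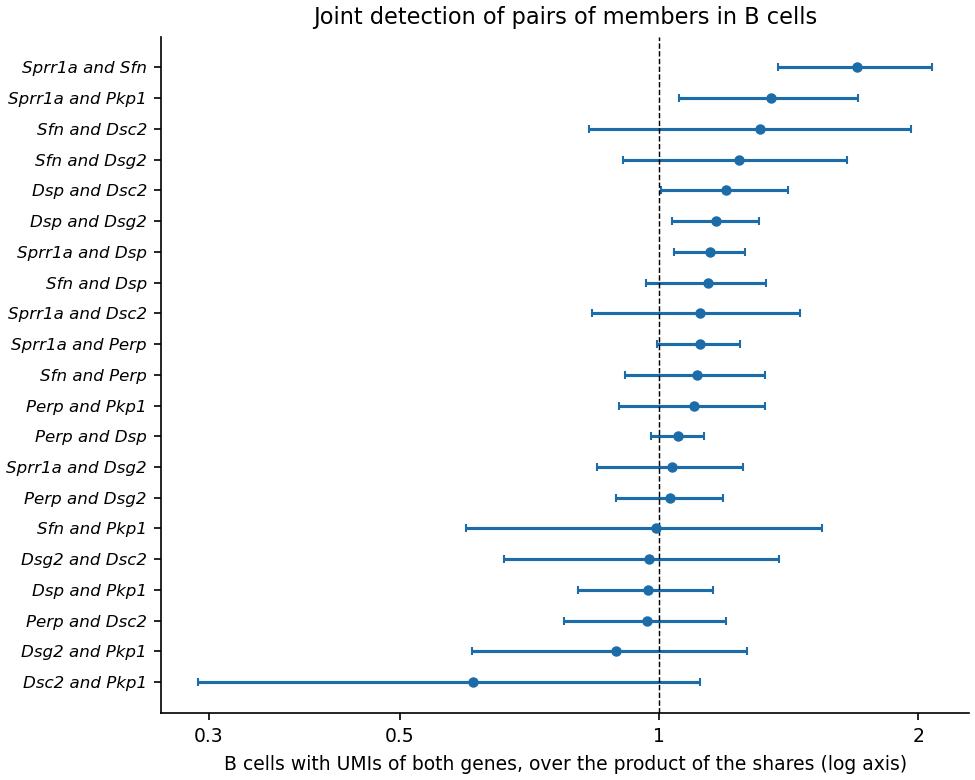
Number of B cells with UMIs of both genes of a pair, divided by the number given by the product of their shares, for the 21 pairs whose product is at least 10 cells (log axis; bars are exact 95% intervals and the dashed line is 1). Sprr1a with Sfn lies highest at 1.70, and most intervals cross the line.

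The members differed sharply in how their UMIs were spread over cells. Sprr1a was carried by a small set of cells in both classes. Its variance-to-mean ratio, which counting alone would set at 1, was 11.7 in B cells, the highest of the 7141 features between 10 and 200 CPM, whose median was 1.02 and 95th percentile 1.09. In A cells it was 9.76, the second of 7501 features, after Acta1 at 12.2, a gene named after its value was seen. In thinned B cells, 273 cells (3.09%) with at least 3 Sprr1a UMIs held 63.8% of all Sprr1a UMIs, and 1 cell held 117. In thinned A cells, 27 cells (0.365%) held 61.4%, and the highest held 35.

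Dsp and Sfn were mildly uneven in B cells, with ratios of 1.18 and 1.31, both above that 95th percentile. Perp (1.01), Dsg2 (1.03), Dsc2 (1.02) and Pkp1 (1.04) lay close to counting alone. The excess over 1 shrinks as the mean falls, and Dsg2, Dsc2 and Pkp1 had means of 0.0929, 0.0425 and 0.0471 thinned UMIs. The mean of Dsp was 0.407 and that of Sfn 0.0552. The 95th percentile was not matched on the mean, so these sparse members are not shown to be more even than Dsp. Because the ratio of Sprr1a rests on few cells, it fell to 2.87 in B and 2.46 in A when the 48 B cells and 7 A cells with at least 10 thinned Sprr1a UMIs were left out. This alternative was chosen after seeing the data.

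**Figure D3:**
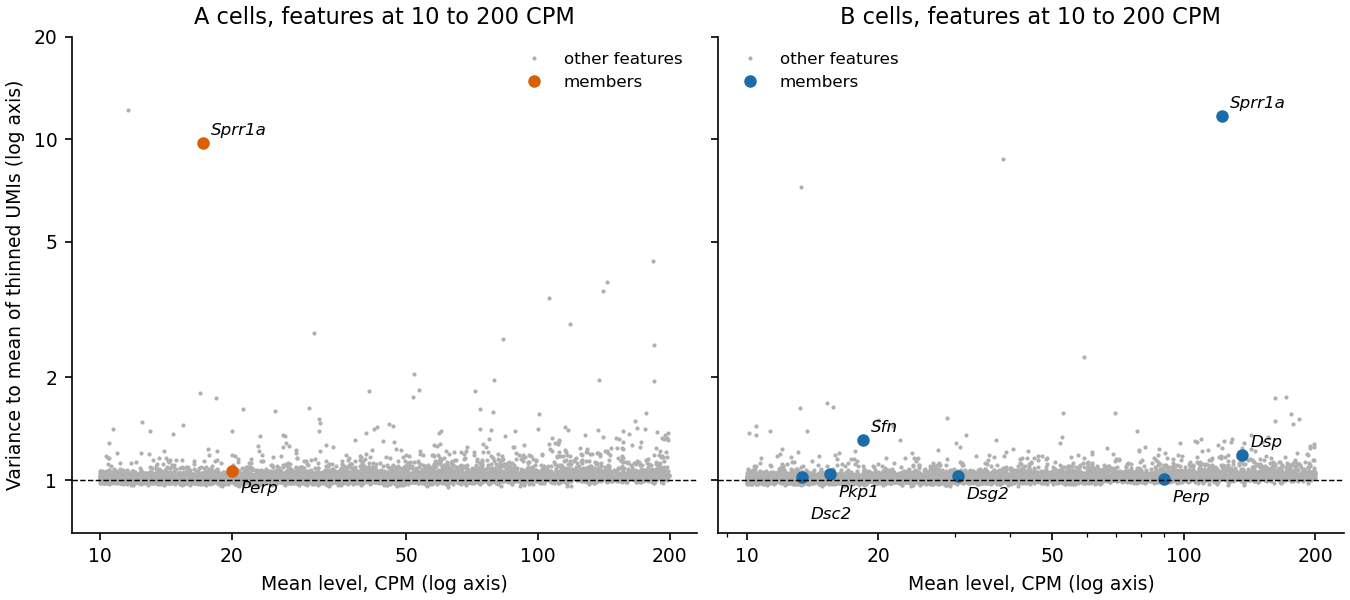
Variance-to-mean ratio of thinned UMIs over cells against mean level in CPM (both axes log) for features at 10 to 200 CPM in A cells (left) and B cells (right); grey dots are other features, coloured dots the members, and the dashed line is a ratio of 1. Sprr1a lies at 9.76 in A and 11.7 in B, while in B cells Sfn lies at 1.31, Dsp at 1.18 and the other members shown between 1.01 and 1.04.

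B cells rich in Sprr1a also held more Dsp and Sfn. Dsp was at 130 CPM (125 to 135) in B cells with 0 thinned Sprr1a UMIs, 151 CPM with 1, 167 CPM with 2, 223 CPM with 3 to 5 and 251 CPM (197 to 315) with at least 6. Sfn was at 16.4 CPM (14.8 to 18.1) with 0 and 48.1 CPM (26.3 to 80.7) with at least 6. Krt14 was at 62.3 CPM and 151 CPM in the same bins, Cdkn1a at 22.4 and 48.1 CPM, and Areg at 441 and 302 CPM. Perp was at 90.1 CPM (86.3 to 94.1) with 0 Sprr1a UMIs, 131 CPM (102 to 165) with 3 to 5 and 110 CPM (75.2 to 155) with at least 6. Dsc2 was at 13.9 CPM with 0 and 13.7 CPM (3.75 to 35.2) with at least 6. Dsg2 was at 30.7 CPM (28.5 to 33.1) with 0 and 37.8 CPM (18.9 to 67.6) with at least 6, so any difference was not detectable at this depth. Pkp1 was at 14.8 CPM (13.3 to 16.5) with 0, 23.2 CPM (17.03 to 30.8) with 1 and 13.7 CPM (3.75 to 35.2) with at least 6, and did not follow the order of the bins. The mean number of UMIs of 10 cell cycle genes (Top2a, Mki67, Cdk1 and others) was 8.97 in B cells with 0 Sprr1a UMIs and 4.57 in those with at least 6. The median depth before thinning was 5426 and 6351 UMIs in those bins, and its part in the result was not tested beyond the thinning.

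Of the members, Sprr1a had the largest ratio between B cells with few and with many cell cycle UMIs. In B cells with 0 thinned UMIs of the 10 cycling genes (403 cells), Sprr1a was at 588 CPM, against 70.7 CPM in those with at least 5 (6333 cells), a ratio of 8.31. The share of cells with a Sprr1a UMI, which does not weigh the richest cells, was 31.3% (26.8 to 36.04) with 0 cycling UMIs. It was 16.0% with 1 to 4, 11.8% with 5 to 9, 10.7% with 10 to 19 and 6.71% (4.66 to 9.29) with 20 or more. Leaving out cells with at least 10 Sprr1a UMIs brought the ratio of levels to 3.21, and thinning to 6000 UMIs brought it to 17.0. The cutoffs of 0 and 5 cycling UMIs were kept at 6000 UMIs, so the groups there are not the same cells. Malat1, a nuclear RNA, was at 11971 CPM in the B cells with 0 cycling UMIs and between 5947 and 8726 CPM in the bins from 5 up. Nupr1, a stress-induced gene, was at 224 CPM and between 33.9 and 42.2 CPM in the same bins. In A cells Malat1 was at 15398 CPM against 5532 to 8908 CPM, and Nupr1 at 659 CPM against 124 to 164 CPM. Their part in the result was not tested.

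Sfn went the same way, at 42.2 CPM with 0 cycling UMIs and 15.4 CPM with at least 5, a ratio of 2.74 (2.00 to 3.71). Dsp was at 239 and 126 CPM, a ratio of 1.90 (1.68 to 2.15), but its share of cells was 29.3% with 10 to 19 cycling UMIs and 35.98% with 20 or more, so it did not fall throughout. Perp differed little, with a ratio of 1.24 (1.03 to 1.48). The intervals of Dsg2, Dsc2 and Pkp1 included 1. With cells thinned to 6000 UMIs the ratio of Dsc2 went from 0.650 to 3.04 and that of Pkp1 from 1.04 to 0.470, so neither has a stable direction.

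In A cells Sprr1a was also more frequent where cycling UMIs were few, in far fewer cells. Its share was 2.91% with 1 to 4 cycling UMIs, 1.77% with 5 to 9, 1.29% with 10 to 19 and 1.36% with 20 or more, so it did not fall throughout. It was 5.17% (3.04 to 8.14) in the 329 A cells with 0 cycling UMIs, 17 cells in all, and 1.44% (1.15 to 1.77) in the 5976 with at least 5. The levels were 94.2 and 6.69 CPM, a ratio of 14.1 that fell to 4.74 without cells of at least 10 Sprr1a UMIs and to 1.41 when A cells were thinned to 6000 UMIs instead. Perp was at 35.5 and 19.0 CPM, a ratio of 1.86 (1.28 to 2.64). Dsp, from 9 UMIs in the cells with 0 cycling UMIs, had a ratio of 2.77 (1.21 to 5.62) and Dsc2, from 13 UMIs, of 2.05 (1.06 to 3.65). Cells with 0 cycling UMIs were shallower before thinning in both classes, with medians of 4756 against 5751 UMIs in B and 3845 against 4961.5 in A. Their mitochondrial shares were 2.02% against 1.88% in B and 3.80% against 3.14% in A.

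**Figure D4:**
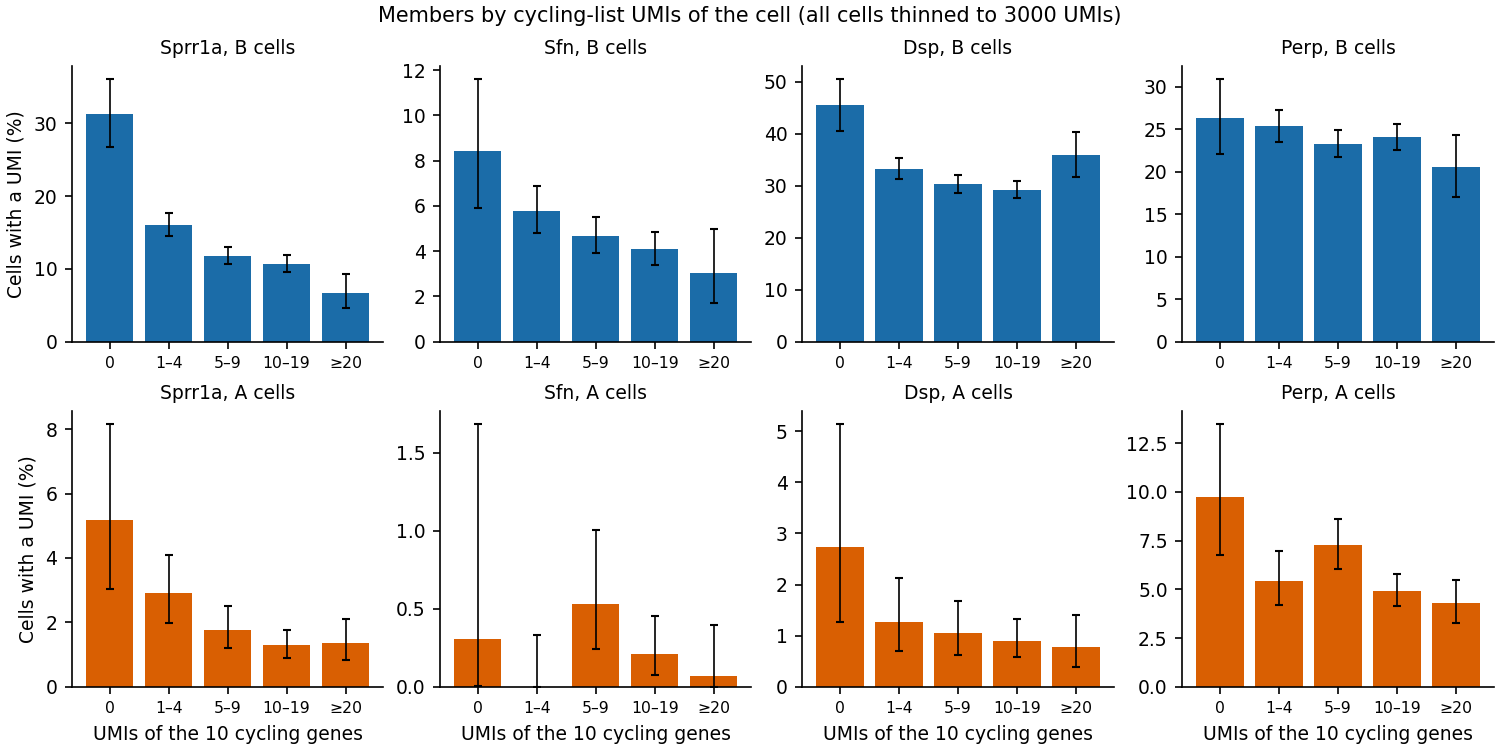
Share of cells with a UMI of Sprr1a, Sfn, Dsp and Perp in B cells (top) and A cells (bottom), by the number of UMIs of 10 cell cycle genes in the cell, after thinning to 3000 UMIs; error bars are exact 95% intervals, and each panel has its own axis from 0. The Sprr1a share falls from 31.3% to 6.71% in B cells, while Perp runs from 26.3% to 20.5%.

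Sprr1a and Sfn were also higher in B cells with keratin 14 and without Areg, Btc or Cftr than in those with the opposite pattern. The split does not separate the presence of Krt14 from the absence of Areg, Btc and Cftr. In the 433 B cells with a Krt14 UMI and none of Areg, Btc or Cftr, 19.6% (16.0 to 23.7) had Sprr1a, against 11.4% (10.5 to 12.2) of the 5383 with the opposite pattern. The Sprr1a levels were 246 and 97.0 CPM, a ratio of 2.53. Sfn was at 39.3 and 13.7 CPM, a ratio of 2.86 (2.06 to 3.89), and Dsp at 168 and 128 CPM, a ratio of 1.32 (1.14 to 1.51). Perp was at 102 and 89.5 CPM, and its interval included 1, as did that of Dsc2 (8.47 and 14.8 CPM), whose ratio of 0.572 was 1.65 with cells thinned to 6000 UMIs.

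Cells were also split by Cdkn1a, the p53 target that encodes the cell cycle inhibitor p21. In B cells with a Cdkn1a UMI (579 of 8827), Sprr1a was present in 18.8% (15.7 to 22.3) of cells against 12.6% (11.9 to 13.4) without. Sfn was 1.63-fold higher (1.19 to 2.19) and Perp 1.27-fold higher (1.09 to 1.47) in these cells, and Dsp 1.06-fold (0.924 to 1.20). In A cells 62 had a Cdkn1a UMI, and 9.68% of these (3.63 to 19.9) had Sprr1a, against 1.76% (1.47 to 2.08) of the 7344 without. The Sprr1a levels were 151 CPM, from 28 UMIs, and 13.8 CPM, a ratio of 10.9 that was 6.504 with cells thinned to 6000 UMIs. Perp, from 9 UMIs, was 2.45-fold higher (1.11 to 4.70) in the A cells with Cdkn1a.

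In A cells with S100g or Epcam and without Tnc or Acta2 (1768 cells), 3.11% (2.35 to 4.03) had Sprr1a, against 1.13% (0.671 to 1.78) of the 1594 with the reverse. Dsp was at 5.66 and 2.30 CPM, a ratio of 2.46 (1.20 to 5.44) that was 1.30 with cells thinned to 6000 UMIs, and Dsc2 at 9.62 and 5.65 CPM, a ratio of 1.70 (1.05 to 2.82). The ratio of Sprr1a levels was 2.64, but 0.732 with cells thinned to 6000 UMIs, so the direction of the level was not stable, while Dsp rested on 30 and 11 UMIs.

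The genes most like a member over cells were sought among genes with at least 50 CPM, outside the 9. For Sprr1a over B cells these were Malat1 (Pearson r of 0.172), Akr1b3 (0.149), Nupr1 (0.144), Gsto1 (0.144) and Myl6 (0.137), where the 99th percentile of 3261 genes was 0.0960. Nupr1 (0.113) and Malat1 (0.111) also led in A cells. For Dsp over B cells they were Crip1 (0.113), Malat1 (0.109), Krt19 (0.108), Myh9 (0.104) and Ahnak (0.103). For Dsg2 they were Krt19 (0.0490), Crip1 (0.0479), Vsig1, Tacc2 and Ctnna1. For Perp the highest r was 0.0430 (Osbpl3) in B cells and 0.0699 (S100a6) in A cells. These values are descriptions over cells of 1 library, and those of Perp and Dsg2 are too weak to rank genes.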

How the data were processed

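Counts of UMIs per gene and barcode were deposited by the authors as 1 sparse matrix, unnormalized, written by Cell Ranger 8.0.1 per the file headers. The build was GRCm39, per the submitters' processing notes. The annotation and further filters are not given in the sources used here. Features were matched by symbol, and RefSeq tables on GRCm38.p6 gave only gene order and promoter sequence.

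From the counts, barcodes were filtered and classed as stated above, and CPM were computed from each class's summed UMIs. Thinning drew UMIs without replacement with a fixed seed, and dropped 410 A cells and 109 B cells under 3000 UMIs. Doublets were marked with Scrublet in scanpy 1.11.5 at an expected rate of 0.08. It marked 778 of 21361 cells, 146 in A and 208 in B, and these were kept except in an alternative. The class rule left out 643 cells with UMIs of both lists but kept those in which 1 list had at least 3 times the other. Intervals came from scipy 1.17.1. The steps were tested on simulated data.

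Members and lists were chosen with earlier results of these data known. Genes named are all members, list genes, the 5 genes most correlated with the 4 members highest in B and the 2 highest in A, flanking genes, and the genes that define the classes, cell states and cycling list. Flanking genes, list genes under 50 CPM and Acta1 were named after their values were seen. Some items are not reported here. Alternatives changed the cell filter, class rule, doublets, scaling, thinning, fold and minimum level.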

Additional observations from a re-analysis of the deposited data

Results flagged for a closer look

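Members were also detected in barcodes that no comparison between A and B cells used. In the 4609 cells in neither class their summed level was 187 CPM (182 to 193), between the 55.3 CPM of A cells and the 426 CPM of B cells. It was 176 CPM in the 3966 of them with few class UMIs and 226 CPM in the 643 with UMIs of both lists, and 9.20% of the cells in neither class were marked as doublets. In the 817 barcodes that failed the cell filter the summed level was 163 CPM (138 to 191), from 153 UMIs. They are given here because UMIs were seen in barcodes outside the comparison, and no background was measured for the barcodes that failed the filter. Which cells these UMIs came from was not tested.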

How the results depend on the processing

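No paired analysis was possible because there is 1 library. All 64 recomputed log2 ratios of B over A, for 8 members under 8 alternatives, kept their sign, and 54 stayed within the counting interval. Of the 10 that moved beyond it, 4 did so under the stricter class rule (at least 5 UMIs and 10 times as many). Dsp ran from 4.79 to 5.49, Sprr1a from 2.80 to 3.35 and Dsc2 from 0.79 to 1.07. The count of 6 members at least 2-fold higher in B was 6 or 7 under the alternatives other than a minimum of 50 CPM, where it was 3, and the count in A was 0. All 3 reach 50 CPM only in B, the class where they are higher. The summed ratio of 7.71 was 9.17 with the stricter class rule, 8.40 without marked doublets, 8.10 thinned, 8.66 centred on the median feature, 8.09 in cells with no UMI of the other class and 5.73 without Dsp. The median correlation stayed below 0.03 in size in both classes, while the highest pair went from 0.0495 up to 0.10004 in A (stricter class rule) and from 0.0681 up to 0.0983 in B (not thinned).

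Several values within a class moved. The splits kept their UMI cutoffs at 6000 UMIs, so the groups compared there are not the same cells. The part of this in the moves was not tested. Thinned to 6000 UMIs, which kept 3331 B and 1899 A cells, Dsc2 in B went from 0.650 to 3.04 (cycling) and from 0.572 to 1.65 (Krt14), and Pkp1 from 1.04 to 0.470 (cycling), each with an interval around 1 at 3000 UMIs. For Sprr1a the ratio for cells with 0 over at least 5 cycling UMIs was 17.0 in B and 1.41 in A, for Krt14 cells 1.91, for Cdkn1a cells 2.18 in B and 6.504 in A (from 10.9), and for S100g or Epcam cells 0.732, a reversed direction. The Sprr1a variance-to-mean ratio was then 27.1 in B and 25.9 in A, and this ratio grows with depth by construction. Without cells of at least 10 Sprr1a UMIs, an alternative chosen after seeing the data, the cycling ratio was 3.21 in B and 4.74 in A, the Krt14 ratio 2.21, the S100g or Epcam ratio 4.39, and the variance-to-mean ratio 2.87 and 2.46. These values rest on few cells, and the cause was otherwise not tested. Depth limits Trp63 (97 UMIs in A and B together), Ly6d and every joint count in A cells.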
